A study of Mus musculus with 2 samples.

Results

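Matrix metalloproteinases (Mmp), the Adamts and Adamts-like (Adamtsl) proteins and the tissue inhibitors of metalloproteinases (Timp) were followed across the cells of mouse dorsal skin by single-cell RNA-seq. The members are all genes whose symbol is Mmp, Adamts, Adamtsl or Timp followed directly by a digit, which gave 51 of 33904 genes: 23 Mmp, 19 Adamts, 5 Adamtsl and 4 Timp genes. The skin came from female C57BL/6J mice, 7 weeks of age at the start and depilated on the back before treatment. In the Ctrl library the depilated skin received ethanol alone every day for 10 days, and in the AD library, a model of atopic dermatitis, it received MC903, an analogue of vitamin D, at 4.5 nmol a day. Both were collected on day 10. Each condition has 1 library, and how many mice went into it is not given in the sources used here. No test between the conditions can therefore be made. All intervals are 95% intervals for counting error only, and they say nothing of the spread between mice.

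The matrix metalloproteinases are zinc proteases that cleave collagens, gelatin, elastin, proteoglycans and cell surface proteins, and most are made as inactive proenzymes. In skin they are best known for collagen turnover, wound repair and the passage of leukocytes. The Adamts proteins are secreted relatives: some cleave the proteoglycans versican and aggrecan, others trim the amino-terminal propeptide from fibrillar procollagens. Adamts-like proteins share the ancillary domains but have no protease domain, and several bind fibrillin microfibrils. The Timps block the active site of these enzymes, and Timp2 with the membrane-type protease Mmp14 also takes part in the activation of pro-Mmp2.

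The deposited matrices count UMIs, which are distinct transcript molecules, from 10x 3′ libraries. Levels are given as CPM: the UMIs that a gene had in the cells of 1 type, divided by all UMIs of those cells and multiplied by 1000000. A molecule is counted once however long its transcript is, so levels of different genes were compared without a length term. After the cell filter, 11399 Ctrl cells (105195951 UMIs) and 8179 AD cells (61645227 UMIs) remained, and the libraries shared 35 barcodes. A cell was gated to the type with most of its 8 markers, none of them a member, if at least 3 were detected with a lead of at least 2. This placed 87.0% of Ctrl and 73.8% of AD cells, and 22.6% of AD cells had under 3 markers of any type. dFBs, the dermal fibroblasts, gave 5618 Ctrl and 4045 AD cells, and 6 other types had at least 50 cells in each library. For the 7 compared types, genes not used for the gate were highest in their own type in 40 of 42 pairs of gene and library. The exceptions were Fcgr3 and Ptprc in AD, both highest in neutrophils.

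A cluster of 10 Mmp genes lies on mouse chromosome 9, between 7272514 and 7699585 (GRCm38), in the order Mmp13, Mmp12, Mmp1b, Mmp3, Mmp1a, Mmp10, Mmp8, Mmp27, Mmp20 and Mmp7. These neighbours were held by different cells. Mmp3 and Mmp27 UMIs lay mostly in dFBs in both libraries (94.9% and 91.8% of all Mmp3 UMIs, 94.8% and 88.8% of Mmp27). Mmp12 UMIs lay mostly in macrophages (54.2% and 73.8%), and in AD 52.9% of Mmp8 UMIs lay in 51 neutrophils. Mmp13 had 13 UMIs in Ctrl, 10 of them in macrophages, and 177 in AD, of which 67.2% lay in dFBs. The 250 bases before the RefSeq start (GRCm38.p6) of 4 of these neighbours are shown. Macrophages led for Mmp12 in both libraries, and dFBs for Mmp3 and Mmp27. Mmp13 was led by macrophages in Ctrl and by dFBs in AD. Adamts1, which leads the Adamts genes by UMIs, is shown for comparison. The 4 neighbours were chosen after their values were seen. Capitals mark the AP-1 motif TGAGTCA, searched on both strands. In Mmp13 it lies on the opposite strand and therefore reads TGACTCA.
Mmp13 (chr9:7272264-7272513, + strand): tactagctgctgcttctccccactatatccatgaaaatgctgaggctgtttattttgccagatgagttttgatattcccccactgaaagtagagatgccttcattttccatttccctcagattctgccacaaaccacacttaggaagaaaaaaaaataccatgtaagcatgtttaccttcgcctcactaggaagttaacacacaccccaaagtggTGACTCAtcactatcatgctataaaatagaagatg
Mmp12 (chr9:7347124-7347373, + strand): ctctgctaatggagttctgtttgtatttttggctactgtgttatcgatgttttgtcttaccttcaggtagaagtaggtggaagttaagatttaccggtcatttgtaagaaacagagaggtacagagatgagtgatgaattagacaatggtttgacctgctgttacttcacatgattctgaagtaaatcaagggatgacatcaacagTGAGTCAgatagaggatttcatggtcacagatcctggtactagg
Mmp3 (chr9:7445572-7445821, + strand): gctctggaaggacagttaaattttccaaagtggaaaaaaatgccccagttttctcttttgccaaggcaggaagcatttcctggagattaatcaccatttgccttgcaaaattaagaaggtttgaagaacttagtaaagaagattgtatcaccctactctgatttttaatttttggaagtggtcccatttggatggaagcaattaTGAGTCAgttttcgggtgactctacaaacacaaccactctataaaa
Mmp27 (chr9:7571146-7571395, + strand): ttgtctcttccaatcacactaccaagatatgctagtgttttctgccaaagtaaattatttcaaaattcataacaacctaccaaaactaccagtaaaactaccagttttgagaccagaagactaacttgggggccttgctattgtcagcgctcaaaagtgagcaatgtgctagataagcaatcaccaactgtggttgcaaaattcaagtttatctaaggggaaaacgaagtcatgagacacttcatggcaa
Adamts1 (chr16:85803114-85803363, - strand): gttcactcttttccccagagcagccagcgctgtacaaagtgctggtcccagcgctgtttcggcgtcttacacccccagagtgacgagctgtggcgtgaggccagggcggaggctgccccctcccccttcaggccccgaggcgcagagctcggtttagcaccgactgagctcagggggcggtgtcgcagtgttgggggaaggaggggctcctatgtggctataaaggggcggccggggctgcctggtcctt
The motif lies 35 to 29 bases before the start in Mmp13, 44 to 38 before the second listed start of Mmp12, which lies inside the annotated gene, and 46 to 40 before the start in Mmp3. It was not found in the Mmp27 or Adamts1 window, nor in the window before the first listed start of Mmp12 (chr9:7344147-7344396), which is not shown. The 36 members with a listed start have 39 windows, and 7 windows, of 7 members, had it (Mmp1a, Mmp1b, Mmp3, Mmp7, Mmp10, Mmp12 and Mmp13), all on chromosome 9. That is 17.9% of the member windows, and among all 32817 listed windows of this length 4.46% had it. A match is a description of letters, not of a bound site, and neighbours both with and without it were high in dFBs.

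dFBs held most UMIs of most members. They held 81.6% of all member UMIs in Ctrl (389837 of 477672) and 75.3% in AD (312907 of 415751), against 51.3% and 55.7% of the UMIs of all genes. In AD a further 11.5% of member UMIs lay in cells outside every gate, against 5.20% in Ctrl. Of the 39 members with at least 100 UMIs in Ctrl, 34 had more in dFBs than in any other type. In AD this was so for 27 of 34. Genes led by other types included Mmp12, the macrophage elastase, in macrophages, Mmp8 and Mmp9, collagenase and gelatinase of granulocytes, in AD neutrophils, and Mmp25, a membrane-anchored leukocyte protease, in mature DCs. In AD endothelial cells were the leading holder of Timp3 (45.1%) and Adamts9 (46%). dFBs led both in Ctrl (59.9% and 42.5%). Such shares follow the mix of cells recovered. KCs, for example, gave 2058 cells in Ctrl and 386 in AD, so the shares describe each cell suspension, not the tissue.

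**Figure D1:**
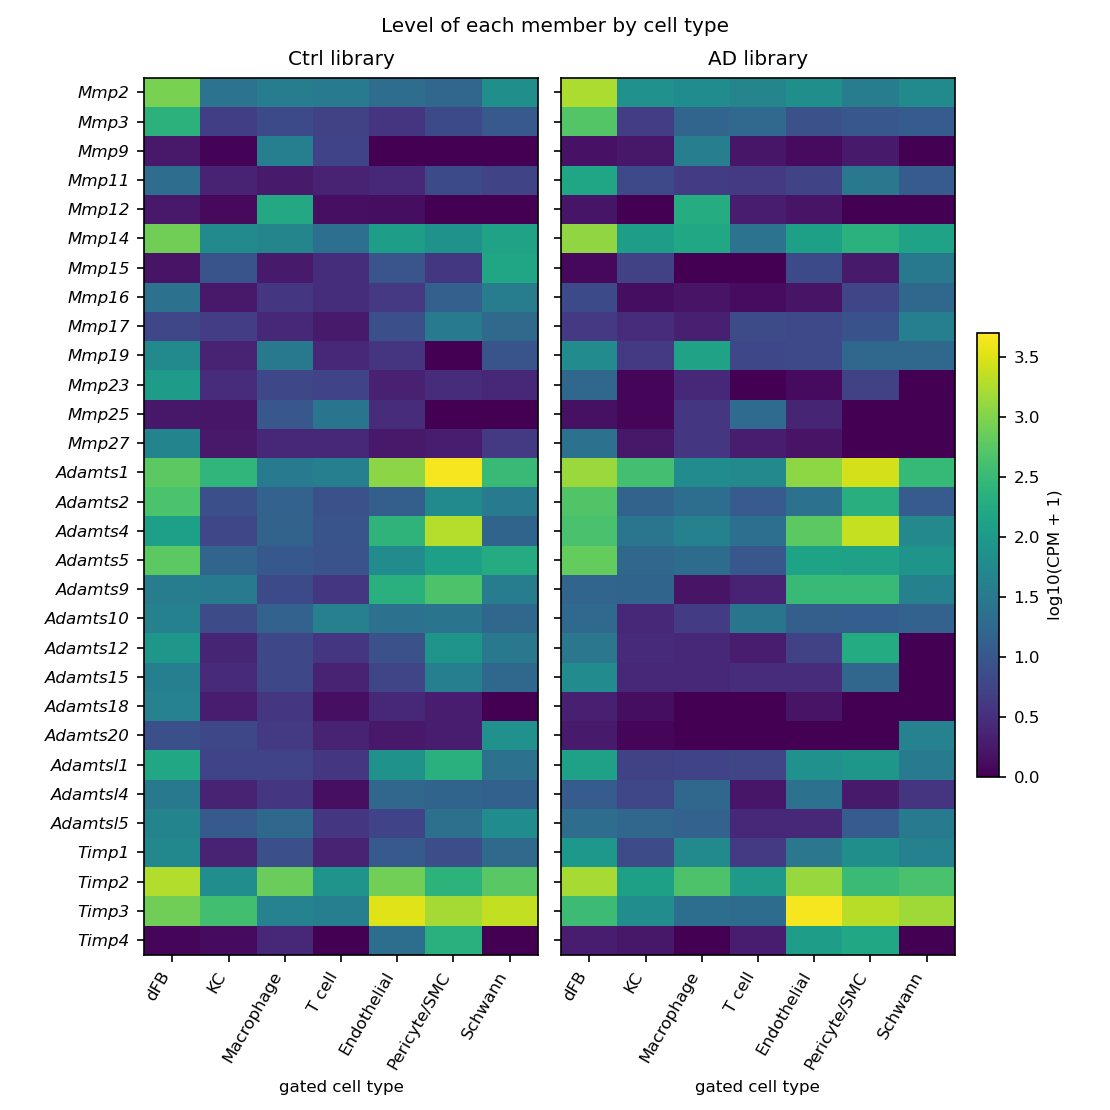
Level of each member with a mean of at least 20 CPM in 1 of the 7 compared types, as log10(CPM + 1) by colour, with gated cell types in columns and the Ctrl and AD libraries in separate panels. Mmp2, Mmp3 and Mmp14 are brightest in dFBs, Mmp12 in macrophages, Adamts1 and Adamts4 in Pericyte/SMC, and Timp3 in endothelial cells (3349 and 4404 CPM).

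In dFBs the members moved in both directions. Genes counted had a mean of at least 5 CPM over the libraries and at least 30 UMIs, which 27 of the 51 members reached, and a gene was called at a 2-fold ratio with 1 CPM added. Mmp3, Mmp11, Adamts1 and Adamts4 were higher in AD, 4 of 27, where 6.45% of all 10306 genes counted were higher. Lower in AD were 10, namely Mmp16, Mmp23, Adamts9, Adamts10, Adamts12, Adamts14, Adamts18, Adamtsl4, Adamtsl5 and Timp3, where 12.6% of all genes were lower. Mmp3 was not called once the 5% of dFBs richest in it were set aside. The median log2 ratio of the 27 members was -0.22, beside -0.09 for all genes. Of the 10 lower members Timp3 was by far the most abundant, and the other 9 lay at or below 106 CPM in both libraries.

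**Figure D2:**
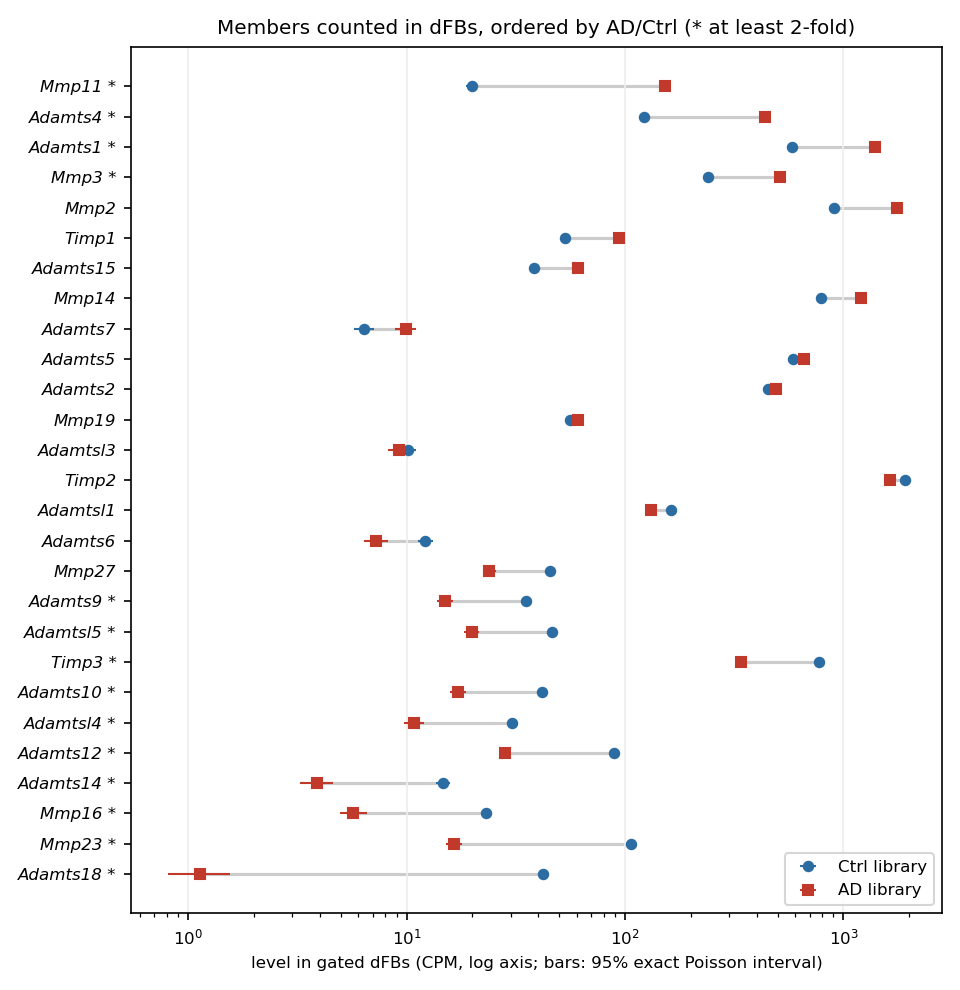
Level of the 27 counted members in gated dFBs, 1 row a gene ordered by the ratio of AD to Ctrl, on a logarithmic CPM axis; circles are the Ctrl library, squares the AD library, and bars are 95% exact Poisson intervals. Asterisks mark the 14 members past 2-fold, from Mmp11 at the top to Adamts18 at the bottom.

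Mmp2 and Mmp14 were the most abundant metalloproteinases of dFBs and stood at a higher level in AD without reaching 2-fold. Mmp2, gelatinase A, was at 905 CPM in Ctrl against 1751 CPM in AD (log2 ratio 0.95, interval 0.93 to 0.97), just under the threshold. Mmp14, the membrane-type collagenase that activates pro-Mmp2, was at 793 CPM in Ctrl against 1204 CPM in AD (log2 ratio 0.60, interval 0.58 to 0.62). Both were detected in most dFBs, Mmp14 in 95.1% of dFBs in Ctrl and 97.9% in AD. A second membrane-type gene, Mmp16, went the other way, at 23.1 CPM in Ctrl against 5.71 CPM in AD (log2 ratio -2.02, interval -2.24 to -1.80). Mmp9, the other gelatinase, was close to absent from dFBs, at 0.779 CPM in Ctrl against 0.524 CPM in AD.

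Mmp3, stromelysin 1, cleaves proteoglycans, laminin and several proenzymes. Its summed level in dFBs was 239 CPM in Ctrl against 511 CPM in AD (log2 ratio 1.10, interval 1.06 to 1.13). The cells that carried it differed. At least 1 Mmp3 UMI was found in 45.4% of dFBs in Ctrl and 24.6% in AD, and after thinning each cell to 1000 UMIs in 16.5% and 10.9%. The share and the CPM go opposite ways, so no order is read from the share. T cells, which should lack the gene, had an Mmp3 UMI in 1.49% and 4.28% of cells at median depths of 3158 and 5777.5 UMIs, against 8836 and 7396 UMIs in dFBs. The 5% of dFBs with most Mmp3 held 40.1% of its dFB UMIs in Ctrl and 83.9% in AD. The highest dFB held 65 Mmp3 UMIs in Ctrl and 844 in AD, and 39 AD dFBs held 100 or more where no Ctrl dFB did. Mmp2, Adamts4 and Timp2 were not gathered in this way. Their top 5% of dFBs held 19% and 25.9% of Mmp2, 39.3% and 41.9% of Adamts4 and 17.2% and 18.3% of Timp2. With the 5% of dFBs richest in Mmp3 set aside in both libraries, the log2 ratio of Mmp3 was -0.66, the opposite direction.

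**Figure D3:**
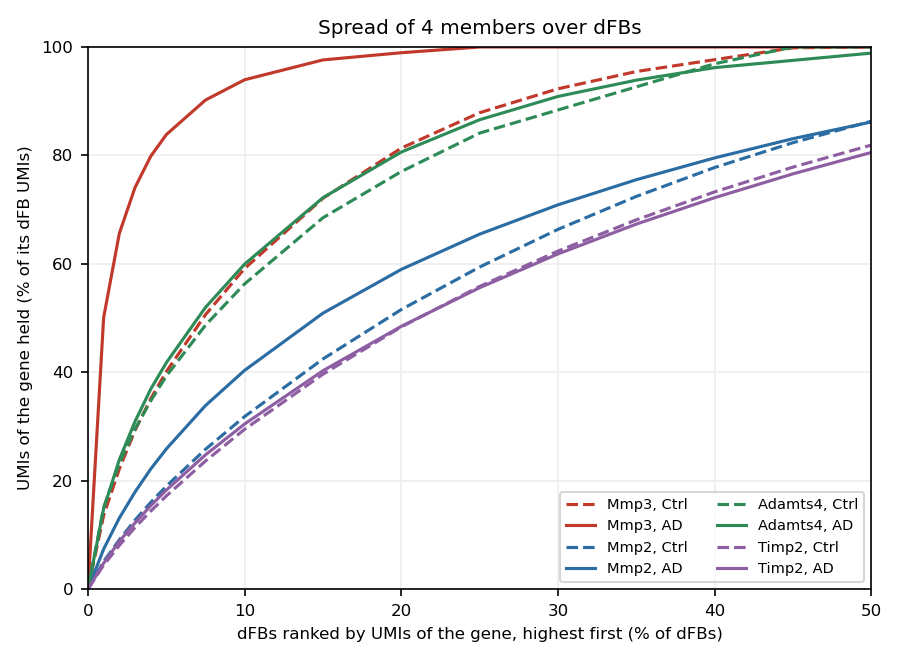
Percent of the dFB UMIs of a gene held (vertical axis) by the dFBs with most of them (horizontal axis, percent of dFBs, highest first), for Mmp3, Mmp2, Adamts4 and Timp2, dashed for Ctrl and solid for AD. The solid Mmp3 line stands apart, since 5% of AD dFBs held 83.9% of its UMIs.

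The 203 AD dFBs with the highest Mmp3 CPM, 5% of all, were described further, a choice made after the values were seen. Their median depth was 8706 UMIs, against 7350.5 in the other AD dFBs. They were spread over subsets: 35% had the markers of the Grem1 and Cyp26b1 reticular preadipocyte subset, which made up 21.6% of AD dFBs, and 32% those of the Areg subset. Other members were unequal between these cells and the rest. Mmp13, collagenase 3, was at 31.2 CPM in these cells and 1.5 CPM in the other dFBs, and 59.7% of its dFB UMIs lay there. Only 0.593% of all AD dFBs had an Mmp13 UMI, and 1 dFB held 43 of the 119. Mmp8 was at 12.3 CPM in these cells and 0.374 CPM in the other dFBs, from 28 and 12 UMIs. Timp1 was at 354 CPM in these cells and 75.6 CPM in the other dFBs, while Mmp11 was lower there (83.6 and 158 CPM), as was Timp3 (212 and 349 CPM). Among all genes with at least 100 CPM in these cells, those that led by fold after Mmp3 were Tfpi2, Stc1, Wfdc17 and Grem1. Tfpi2, a serine protease inhibitor, was at 369.5 and 17.4 CPM, and Tnc, the matrix protein tenascin C, at 1129 and 138 CPM. In Ctrl, where the same 5% held 35.5% of Mmp3 UMIs, Timp1 was at 67.6 CPM in these cells and 52.4 CPM in the other dFBs. Stc1 (173 and 36.4 CPM) and Grem1 (214 and 79.8 CPM) were among the leading genes in Ctrl too. Grem1 is itself a marker of the reticular preadipocyte subset. The cells were ranked on Mmp3 itself, so these are descriptions of 1 library at a time.

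Mmp11, stromelysin 3, which acts weakly on matrix and is known from stroma in remodelling tissue, had the highest ratio among the dFB members: 20 CPM in Ctrl against 153 CPM in AD (log2 ratio 2.94, interval 2.84 to 3.03). It was found in 14.8% of dFBs in Ctrl and 51.2% in AD, and in 1.85% and 13.8% after thinning. Chchd10, a mitochondrial protein gene that overlaps Mmp11 on the opposite strand, was at 5.53 CPM in Ctrl against 224 CPM in AD in dFBs, and whether the counting used strand is not given in the sources used here. The Mmp11 value is therefore uncertain, and the part of the neighbour in it was not tested. Mmp19 was nearly level in dFBs, at 55.8 CPM in Ctrl against 60.7 CPM in AD. Mmp23, a membrane protease of the cysteine array type, was at 106 CPM in Ctrl against 16.5 CPM in AD (log2 ratio -2.68, interval -2.81 to -2.56), with a UMI in 52.1% of dFBs in Ctrl and 11.4% in AD. Mmp27 was at 45.4 CPM in Ctrl against 23.9 CPM in AD, a ratio just short of 2-fold.

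Among the Adamts genes, 7 are proteoglycanases, which cleave versican or aggrecan. In dFBs their summed level was 1377 CPM in Ctrl and 2565 CPM in AD. Of the 5 counted 2 were higher and 1 lower, where 6.45% and 12.6% of all genes were. Adamts1, a versicanase that also restrains vessel growth, was at 582 CPM in Ctrl against 1389.7 CPM in AD (log2 ratio 1.26, interval 1.24 to 1.28), and Adamts4, aggrecanase 1, at 122 CPM in Ctrl against 439 CPM in AD (log2 ratio 1.84, interval 1.80 to 1.89). Adamts4 was found in 43.6% of dFBs in Ctrl and 54.2% in AD, and in 9.5% and 22.6% after thinning. Adamts5, aggrecanase 2, differed little, at 589 CPM in Ctrl against 659 CPM in AD, and Adamts15 was at 38.3 CPM in Ctrl against 60.6 CPM in AD. Adamts9, the remaining counted proteoglycanase, was lower at 35 CPM in Ctrl against 15 CPM in AD (log2 ratio -1.22, interval -1.36 to -1.08).

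The procollagen N-proteinases trim fibrillar procollagens. Adamts2, the main one in skin, was at 452 CPM in Ctrl against 493 CPM in AD, while the less abundant Adamts14 was at 14.7 CPM in Ctrl against 3.87 CPM in AD (log2 ratio -1.92, interval -2.20 to -1.66). Of the 9 other Adamts genes 5 were counted in dFBs: 3 lower and none higher, against 12.6% and 6.45% of all genes. Adamts12 was at 88.6 CPM in Ctrl against 28.1 CPM in AD (log2 ratio -1.66, interval -1.76 to -1.56), and Adamts10, which binds fibrillin microfibrils, at 41.7 CPM in Ctrl against 17.2 CPM in AD. Adamts18 had the lowest ratio of any member: 2267 UMIs in Ctrl dFBs and 39 in AD dFBs, or 42 CPM in Ctrl against 1.14 CPM in AD (log2 ratio -5.21, interval -5.71 to -4.76). Of the Adamts-like genes, Adamtsl1 was the most abundant and differed little (162 CPM in Ctrl against 131 CPM in AD). Adamtsl4 and Adamtsl5, both linked to microfibrils, were lower, at 30.4 and 10.8 CPM and at 46.1 and 19.9 CPM, Ctrl first.

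The inhibitors did not move as one group. Timp2 was the most abundant member of all in Ctrl dFBs and was at 1904 CPM in Ctrl against 1635 CPM in AD (log2 ratio -0.22, interval -0.23 to -0.20). Timp3, the inhibitor that binds to the matrix and also blocks Adamts proteoglycanases, was at 776 CPM in Ctrl against 339.6 CPM in AD (log2 ratio -1.19, interval -1.22 to -1.16), with a UMI in 82.7% of dFBs in Ctrl and 64.8% in AD. Timp1 was at 53.1 CPM in Ctrl against 94 CPM in AD. Timp4 was almost not found in dFBs, with 9 UMIs in Ctrl and 32 in AD. Summed over the family, Timp genes were at 2734 CPM in Ctrl against 2070.0 CPM in AD and Mmp genes at 2196 CPM in Ctrl against 3736 CPM in AD. Mmp UMIs per Timp UMI were 0.803 in Ctrl and 1.8 in AD. Such a quotient counts transcripts and is no measure of protease activity.

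The make-up of the dFBs, as read from marker genes, differed between the libraries. A change of marker expression and a change in the mix of cells recovered cannot be told apart in this way. The dFBs were split by 6 lists of 5 marker genes: the Dpp4 interstitial subset held 2945 Ctrl and 639 AD cells, the Areg subset 156 and 1119, the reticular preadipocyte subset 314 and 873, and the peri-follicular papillary subset 175 and 86. Follicle mesenchyme (377 and 17 cells) and Lrrc15 contractile dFBs (541 and 20) had few cells in AD, and 1110 and 1291 dFBs had no subset. Mmp11 was higher in AD within each of the 4 subsets with at least 50 cells in both libraries, for example at 18.6 and 159 CPM in the Dpp4 interstitial subset. Mmp23 was lower within each of the 4, at 129 and 23.9 CPM in the same subset. Mmp3 was not uniform. It was at 308 and 136 CPM in the Dpp4 interstitial and 459 and 350.0 CPM in the Areg subset, but at 307 and 959 CPM in the reticular preadipocyte and 201 and 1322 CPM in the peri-follicular subset, Ctrl first. The last value came from 86 AD cells.

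Adamts4 was unequal too, at 112 and 144 CPM in Dpp4 interstitial dFBs and at 95.8 and 687 CPM in the reticular preadipocyte subset. Timp3 was highest in the Dpp4 interstitial and Areg subsets of Ctrl and lower there in AD (1047 and 441 CPM, and 1115 and 385 CPM), while the peri-follicular subset was level (319 and 313 CPM). Adamts18 lay largely in a subset scarce in AD. Lrrc15 contractile dFBs carried 1152 of its 2267 Ctrl UMIs, at 168 CPM, and the 20 such cells in AD were at 62.1 CPM from 8 UMIs. It was also lower in Dpp4 interstitial dFBs, from 413 UMIs (14 CPM) to 0. With the AD subsets weighted by their Ctrl shares, the log2 ratio of Mmp3 was -0.044 and Mmp3 was no longer called. In this weighting the AD levels of follicle mesenchyme and Lrrc15 contractile dFBs rest on 17 and 20 cells. Mmp11, Adamts1 and Adamts4 remained called as higher and 8 of the 10 lower members as lower. Adamts10 (-1.01) and Adamtsl4 (-0.95) were still lower in AD but not called with 1 CPM added. Under the same weighting the ratio was 0.39 for Mmp2 and -0.010 for Timp1.

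**Figure D4:**
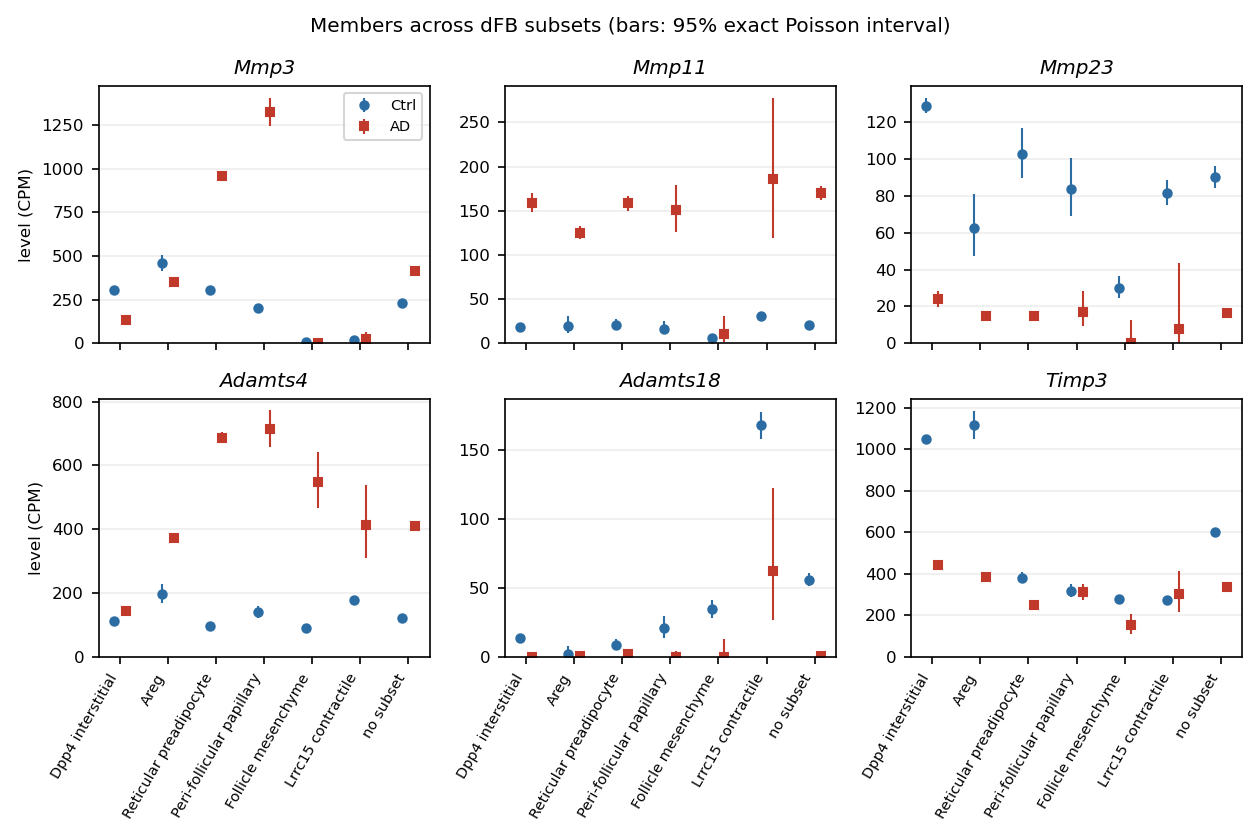
Level (CPM) of Mmp3, Mmp11, Mmp23, Adamts4, Adamts18 and Timp3 in each dFB subset, circles for Ctrl and squares for AD, with 95% exact Poisson intervals. Mmp11 is higher and Mmp23 lower in AD in every subset with at least 50 cells in both libraries, whereas Mmp3 is higher in only some of them.

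Genes that work with these enzymes were taken from fixed lists. Of 16 matrix substrates, 14 were counted in dFBs, and 12 were lower in AD and none higher, where 12.6% and 6.45% of all genes were. Their median log2 ratio was -2.58 beside -0.09 for all genes. Col1a1, a chain of type I collagen, was at 11928 and 837 CPM and Fn1, fibronectin, at 1489 and 244 CPM. Versican (Vcan), a substrate of Adamts1 and Adamts4, was at 1087 and 209.7 CPM, and Acan, aggrecan, at 54 and 1.14 CPM. The remaining 2, the basement membrane collagen genes Col4a1 and Col4a2, were at 650.2 and 746 CPM and at 265 and 348 CPM. Of 18 activators and other inhibitors 16 were counted, 3 higher and 2 lower, where 6.45% and 12.6% of all genes were. Thbs1 and Thbs2, matricellular proteins that bind Mmp2, were at 213 and 1998 CPM and at 463 and 1192 CPM, and Tfpi2 was at 12.9 and 40.7 CPM. Pcsk6, a proprotein convertase, was at 68.1 and 9.61 CPM, and Pcolce, which enhances procollagen processing, at 391 and 145 CPM. All pairs give Ctrl first. Of 13 genes known to respond to tissue dissociation, 3 were higher in AD dFBs (Junb, Ier3 and Zfp36) and none was lower. Of all genes, 6.45% were higher and 12.6% lower. The median log2 ratio of the 13 was 0.54. Junb was at 2165 and 4395 CPM. Their part in the member values was not tested.

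KCs, the cells of the keratinocyte gate, differed most in Timp3. It was at 381 CPM in Ctrl against 63.5 CPM in AD (log2 ratio -2.58, interval -2.74 to -2.43) and had a UMI in 65.5% of KCs in Ctrl and 32.4% in AD. Those shares are not at equal depth, since the median was 14498.5 UMIs in Ctrl KCs and 10802 in AD KCs. Of 11 members counted, Mmp2, Mmp14 and Adamts4 were higher, against 6.02% of all genes, and Adamts9 and Timp3 lower, against 10.9%. The KCs of the libraries were not alike, with Krt10, a keratin of differentiating layers, at 6824 CPM in Ctrl against 461 CPM in AD. The gate had no separate list for hair follicle keratinocytes, so these were not told apart from epidermal ones, also not in the split below. Among KCs with more basal than suprabasal keratin UMIs (1592 and 381 cells), Timp3 was at 485 CPM in Ctrl against 64.3 CPM in AD and Adamts9 at 41.6 CPM in Ctrl against 14.9 CPM in AD, so both were lower there as well. Mmp14 was at 56.3 CPM in Ctrl against 114 CPM in AD, but at 72.3 CPM in Ctrl against 115 CPM in AD among the basal-keratin KCs, where it was no longer called. Adamts1, the protease with the highest level in KCs, was at 272 CPM in Ctrl against 388 CPM in AD. Adamts4 was at 5.17 and 27 CPM and Adamts9 at 31.6 and 14.8 CPM, Ctrl first. Mmp13, not counted, had 0 UMIs in Ctrl KCs and 28 in AD KCs. Mmp2 was at 24.8 CPM in Ctrl against 72.5 CPM in AD, which is 2.74% and 4.14% of its dFB level. The dFB genes Col1a1, Col3a1 and Dcn lay at 1.35% to 3.41% and 1.42% to 2.03% of theirs in the same cells. With dFB RNA taken off in proportion to Dcn, Mmp2, Mmp14 and Adamts4 remained called. With Leiden clusters Mmp2 and Mmp14 were not called.

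Macrophages (491 and 205 cells) had a higher level of several members in AD. Of 18 counted, 8 were higher, where 5.11% of all genes were: Mmp3, Mmp8, Mmp13, Mmp14, Mmp19, Adamts4, Adamtsl4 and Timp1. Adamts10 alone was lower (13.6 and 3.37 CPM), where 9.41% of all genes were. Mmp19 was at 30.5 CPM in Ctrl against 132 CPM in AD (log2 ratio 2.12, interval 1.74 to 2.52), with a UMI in 9.37% and 38% of macrophages, and Mmp14 at 46.6 CPM in Ctrl against 162 CPM in AD (log2 ratio 1.80, interval 1.48 to 2.12). The median depth of macrophages was 4571 UMIs in Ctrl and 7498 in AD, so the 2 shares are not at equal depth. Timp1 was at 7 CPM in Ctrl against 56.1 CPM in AD (log2 ratio 3.00, interval 2.25 to 3.84) and Timp2, their main inhibitor by level, at 718 CPM in Ctrl against 458 CPM in AD. Mmp12, the elastase by which many macrophages are known, was at 171 CPM in Ctrl against 192 CPM in AD (log2 ratio 0.17, interval -0.04 to 0.38), an interval that includes 0, and lay in few cells (45 of 491 and 31 of 205). Adamts4 was at 14 CPM in Ctrl against 41 CPM in AD and Adamtsl4 at 2.88 CPM in Ctrl against 16.3 CPM in AD. For some genes most AD UMIs lay in 1 cell. The macrophage with most held 22 of 28 Mmp13 UMIs, 18 of 27 for Mmp3 (5.77 and 15.1 CPM) and 47 of 67 for Mmp9 (38.7 and 37.6 CPM). Mmp8 was at 1.24 and 17.4 CPM, from 3 and 31 UMIs, of which 1 cell held 11. Macrophages had Col1a1, Col3a1 and Dcn at 2.79% to 3.15% and 1.17% to 4.17% of the dFB level, and Mmp3 at 2.42% and 2.97% of it. The direction was lost for Mmp3 with Leiden clusters (log2 ratio -0.95) and for Mmp13 without the 5% of cells with most UMIs (-0.84).

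Leukocytes outside the macrophage gate carried a few members at high level in few cells. The 51 AD neutrophils had Mmp8 at 739 CPM (146 UMIs) and Mmp9, gelatinase B, at 491 CPM (97 UMIs), both enzymes stored in neutrophil granules. Ctrl had 5 gated neutrophils, so the libraries cannot be compared. Mature DCs, 34 in Ctrl and 33 in AD, had Mmp25 at 389 and 361 CPM. T cells (673 and 444) had 12 members counted, 2 of them higher (Mmp3 and Adamts4, with 2.97% of all genes higher) and none lower (7.04% of all genes). Mmp3 was at 4.11 and 17.5 CPM there, 1.72% and 3.42% of the dFB level, beside 1.83% to 2.67% and 1.46% to 2.39% for Col1a1, Col3a1 and Dcn, and 1 AD cell held 33 of its 53 UMIs. With dFB RNA taken off in proportion to Dcn, neither remained called. Mmp25 in T cells was at 26.7 and 18.8 CPM and Adamts10 at 39.5 and 26 CPM, and Adamts4 at 8.23 and 21.1 CPM.

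Endothelial cells (394 and 376) were rich in inhibitors. Timp3 was at 3349 CPM in Ctrl against 4404 CPM in AD (log2 ratio 0.40, interval 0.36 to 0.43), the highest level of any member in this type, and Timp2 at 818 CPM in Ctrl against 1361 CPM in AD. Of 19 members counted, 6 were higher in AD, where 2.95% of all genes were, namely Mmp2, Adamts4, Adamts5, Adamtsl3, Timp1 and Timp4. None was lower, where 8.4% of all genes were. Timp4 was at 20.8 CPM in Ctrl against 113 CPM in AD (log2 ratio 2.45, interval 2.03 to 2.88), Adamts4 at 252 CPM in Ctrl against 591 CPM in AD (log2 ratio 1.23, interval 1.10 to 1.36) and Adamts5 at 59.8 CPM in Ctrl against 137 CPM in AD. Timp1 was at 10 CPM in Ctrl against 28.2 CPM in AD. Adamts1 was level, at 1122 CPM in Ctrl against 1185 CPM in AD. Mmp2 was at 19.7 and 67.6 CPM, 2.17% and 3.86% of its dFB level, where Col1a1, Col3a1 and Dcn were at 1.23% to 1.5% and 2.04% to 4.32%. With dFB RNA taken off in proportion to Dcn, none of the AD Mmp2 level remained. The log2 ratio of -3.25 then comes from the 1 CPM added and gives no direction. Dcn was at 1.23% and 4.12% of the dFB level and Col1a1 at 1.5% and 2.04%, and scaling by Col1a1 was not tried. Mmp UMIs per Timp UMI were 0.0405 in Ctrl and 0.0384 in AD.

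A split of the endothelial cells, chosen after the values were seen, showed that these ratios were not shared by all of them. Cells with at least 2 of the lymphatic vessel genes Prox1, Lyve1, Flt4, Mmrn1 and Ccl21a (295 and 274) had Timp3 at 3423 CPM in Ctrl against 5601 CPM in AD and Timp4 at 14 CPM in Ctrl against 135 CPM in AD. The remaining cells (99 and 102) had Timp3 at 3131 CPM in Ctrl against 1574 CPM in AD, the opposite direction, and Timp4 at 41 CPM in Ctrl against 62.1 CPM in AD. Adamts5 was at 69.8 CPM in Ctrl against 183 CPM in AD in the first and at 30.4 CPM in Ctrl against 29.2 CPM in AD in the second, where 20 and 31 UMIs were counted. Adamts4 was higher in AD in both, at 136 CPM in Ctrl against 310.2 CPM in AD and at 591 CPM in Ctrl against 1255 CPM in AD. Adamts9, a secreted protease of vessels, was at 421 CPM in Ctrl against 715 CPM in AD in the cells with fewer lymphatic markers and level in the others (151 and 144 CPM).

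Pericytes and smooth muscle cells (201 and 149, gated together) had the highest Adamts1 and Adamts4 levels of the 7 compared types in both libraries. Adamts1 was at 4433 CPM in Ctrl against 2879 CPM in AD (log2 ratio -0.62, interval -0.69 to -0.56) and Adamts4 at 1917 CPM in Ctrl against 2359.5 CPM in AD (log2 ratio 0.30, interval 0.22 to 0.38). Of 21 members counted, 7 were higher in AD, where 7.06% of all genes were: Mmp2, Mmp11, Mmp14, Adamts2, Adamts7, Adamts12 and Timp1. Lower, where 8.5% of all genes were, stood 4: Mmp17, Adamts10, Adamts15 and Adamtsl1. Mmp2, at 15.6 and 35.6 CPM, had a log2 ratio of -0.20 with the stricter gate, so neither the call nor the direction held. With dFB RNA taken off, none of its AD level remained, and the ratio with 1 CPM added was -3.03. Mmp11 was at 5.86 and 28.9 CPM, from 6 and 35 UMIs. Adamts2 was at 56.6 CPM in Ctrl against 205 CPM in AD (log2 ratio 1.86, interval 1.44 to 2.30), Mmp14 at 75.2 CPM in Ctrl against 229.9 CPM in AD and Adamtsl1 at 221 CPM in Ctrl against 89.3 CPM in AD. Adamts9 was at 470.5 CPM in Ctrl against 305 CPM in AD, the highest level among the 7 types in Ctrl and just under that of endothelial cells in AD (313 CPM). Timp1 had 7 UMIs in Ctrl and 84 in AD, or 6.83 and 69.5 CPM. Adamts7 had 0 UMIs in Ctrl, which allows up to 2.93 CPM (3 counts), and 30 in AD. The AD level of 24.8 CPM is 8.47 times that ceiling, before its own counting error. Adamts7 was not called with the stricter gate or without the 5% of cells with most UMIs. Tbc1d2b, which overlaps it on the opposite strand, was at 17.6 and 52.1 CPM here, and its part in the value was not tested. Adamts12, lower in AD dFBs, was at 81 CPM in Ctrl against 191 CPM in AD (log2 ratio 1.24, interval 0.87 to 1.62) here, above the 28.1 CPM of AD dFBs. The AD cells had Col1a1 at 55.5%, Col3a1 at 83.9% and Dcn at 5.71% of the dFB level, against 0.932% to 5.22% in Ctrl. Cells with at least 2 of the smooth muscle genes Myh11, Cnn1, Actg2 and Synpo2 were 158 of 201 in Ctrl and 84 of 149 in AD. Of the 11 called members, 4 (Mmp14, Adamts2, Timp1 and Adamtsl1) were called in the cells under that mark too.

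Schwann cells (196 and 103) had 10 members counted, with none higher (5.65% of all genes) and 2 lower (10.3%). Mmp15, a membrane-type protease, was at 147 CPM in Ctrl against 29.8 CPM in AD (log2 ratio -2.30, interval -3.35 to -1.39) and Adamts5 at 185 CPM in Ctrl against 81.3 CPM in AD (log2 ratio -1.19, interval -1.82 to -0.60). With dFB RNA taken off in proportion to Dcn, both remained called as lower. Schwann cells had Col1a1, Col3a1 and Dcn at 6.08% to 8.34% of the dFB level in Ctrl and 4.8% to 23.6% in AD. Timp3 was their leading member, at 2299 CPM in Ctrl against 1505 CPM in AD. Adamts20, known for its role in melanoblast spread, had its highest level here among the 7 types, at 74.1 CPM in Ctrl against 43.4 CPM in AD, from 46 and 16 UMIs. Mmp16, Mmp17 and Adamtsl5 were also highest in Schwann cells by their mean over the libraries, at 35.4 and 16.3 CPM, 17.7 and 38 CPM and 61.2 and 32.5 CPM. Mmp16 and Mmp17 each had under 30 UMIs there over both libraries, so they were not counted in Schwann cells. Timp4 in AD was held mainly by 105 adipocytes (42.5% of its UMIs, 283 CPM), a type of which Ctrl had 1 cell. In Ctrl the pericyte and smooth muscle gate led for Timp4, at 219 and 159.6 CPM in the 2 libraries.

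Summed by family, dFBs had the highest Mmp level of the 7 compared types, the pericyte and smooth muscle gate the highest Adamts level and endothelial cells the highest Timp level. Adamts genes were at 7189 CPM in Ctrl against 6159 CPM in AD in pericytes and smooth muscle cells and at 2049 CPM in Ctrl against 3129 CPM in AD in dFBs. Timp genes were at 4197 CPM in Ctrl against 5907 CPM in AD in endothelial cells. Mmp UMIs per Timp UMI were 0.235 in Ctrl and 1.09 in AD in KCs and 0.462 in Ctrl and 1.21 in AD in macrophages.

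**Figure D5:**
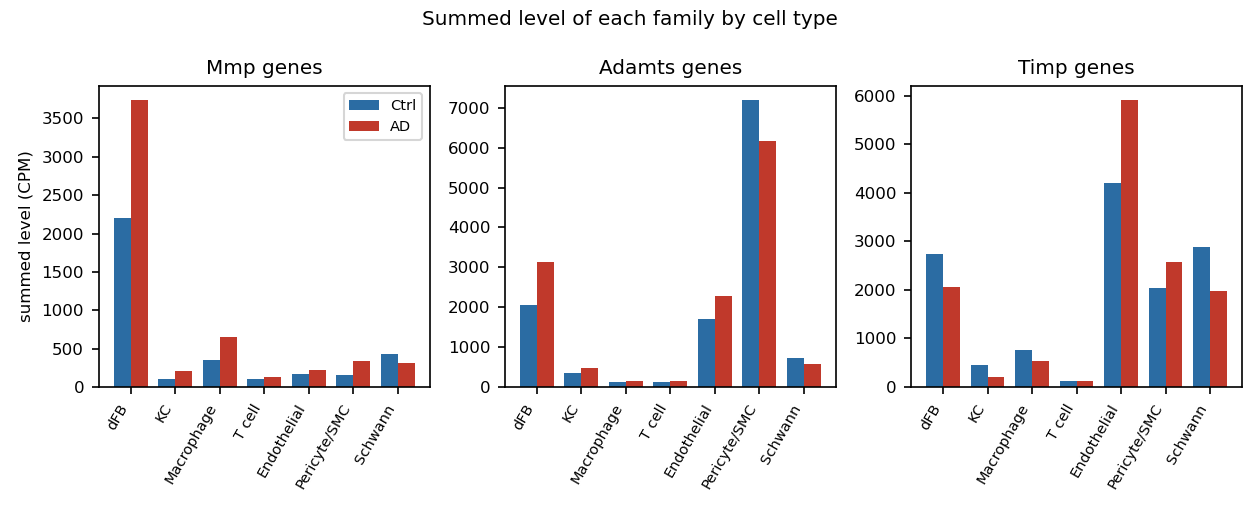
Summed level (CPM) of the 23 Mmp, 19 Adamts and 4 Timp genes in the 7 compared cell types, 1 panel a family, with Ctrl and AD bars side by side. The Mmp bar of dFBs is taller in AD (2196 and 3736 CPM) and their Timp bar shorter (2734 and 2070.0 CPM).

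The other members were scarce. Mmp1a and Mmp7 had no UMI in either library, which allows at most 0.0285 CPM over all Ctrl cells and 0.0487 CPM over all AD cells. Mmp1b, Mmp10, Mmp20, Mmp21, Mmp24, Mmp28, Adamts13 and Adamts16 had between 1 and 81 UMIs in both libraries together. Mmp28, a protease of keratinocytes in some settings, had 61 and 20 UMIs, spread over several types. Adamts3, Adamts8, Adamts17, Adamts19 and Adamtsl2 had 187 to 620 UMIs and lay mostly in dFBs in each library. Mmp17 had 561 and 232 UMIs, with dFBs holding 49.9% and 46.1%. Adamts6, Adamts7 and Adamtsl3 were counted in dFBs and stayed under 2-fold there, at 12.2 and 7.25 CPM, 6.4 and 9.9 CPM and 10.2 and 9.23 CPM.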

How the data were processed

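The data are single-cell RNA-seq of dorsal skin in 1 Ctrl and 1 AD library. The authors deposited gene-by-barcode matrices of raw UMI counts, made with Cell Ranger (3.1.0 in the submitters' processing notes, 5.0.0 in the matrix headers, a later version in the study's methods) on mm10. The notes also name Seurat 5.0. The sample labels give collagenase D for dissociation and the methods collagenase IV. Whether counting used strand is not given in the sources used here.

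Kept were barcodes having 200 to 6000 genes, with mitochondrial genes giving no more than 10% of UMIs, which removed 9.52% of Ctrl and 6.82% of AD barcodes. No doublet caller was run. The lead of 2 asked for by the gate left 5.21% of Ctrl and 3.57% of AD cells ungated. Cells with markers of several types were kept where the lead was at least 2, so mixed droplets can remain. UMIs were summed over gated cells. Intervals are exact at 95% (Poisson for levels, Clopper-Pearson for shares, conditional binomial for ratios) and cover counting error only. With 1 library a group no test was made and no p-value is given. Shares were also computed at 1000 UMIs a cell, leaving out shallower cells. Calls used a mean of at least 5 CPM, at least 30 UMIs and a 2-fold ratio with 1 CPM added. Every member is accounted for by name, with values for those of at least 20 CPM in the type where they are highest and for those same members where past 2-fold in dFBs, KCs, macrophages or endothelial cells. Partner genes were to be named where past 2-fold with a mean of at least 20 CPM. Of the substrates past 2-fold a few are given with values, and the 2 counted substrates under 2-fold are also named, a choice made after their values were seen. The members, gene lists, markers and splits were chosen with earlier results of these data known. The counting steps were tested on simulated data. Python 3.11.15 was used with numpy 2.4.6, scipy 1.17.1, pandas 2.3.3, scanpy 1.11.5, leidenalg 0.10.2 and matplotlib 3.10.9. Gene positions and promoter sequences are from RefSeq and GENCODE on GRCm38.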

Additional observations from a re-analysis of the deposited data

Results flagged for a closer look

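For 3 members the ratio of AD to Ctrl went past 2-fold in opposite directions in 2 cell types, and with 1 library a group the difference between the types was not tested. The log2 ratio of Adamts5 was 1.20 in endothelial cells and -1.19 in Schwann cells. That of Adamts12 was 1.24 in pericytes and smooth muscle cells and -1.66 in dFBs. That of Adamtsl4 was 2.50 in macrophages and -1.49 in dFBs. Not every one of these calls held under the alternatives. Adamts5 was not called in Schwann cells with the stricter gate, the looser gate or Leiden clusters. In endothelial cells it was not called with Leiden clusters or in those without lymphatic markers. Adamts12 was not called in pericytes without smooth muscle markers. Adamtsl4 in dFBs was not called with 10 CPM added or with AD subsets weighted as in Ctrl (-0.95).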

How the results depend on the processing

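Under 21 alternatives, 158 of 220 counts and shares stayed within 1.5 times the reported count or within the interval of the share, and 62 moved. Of 728 log2 ratios of called members under the alternatives, 719 kept their direction, 663 also stayed past 2-fold and 9 reversed. Alternatives that change only the CPM added or the filter use the same levels, so no direction could change under them. A changed filter left the ratio as it was too, and members that fell below a stricter filter were still tallied. These totals therefore overstate how far the calls were put to a test. The 9 include values with dFB RNA taken off where none of the AD level remained. These were Mmp3 in macrophages and Mmp2 in endothelial cells and in pericytes and smooth muscle cells. The cause of a change was not tested unless the alternative itself removes genes or cells. The alternatives that take off dFB RNA, split a type or leave out dFBs rich in Mmp3 were chosen after the data were seen. Scaling by the median ratio of genes moved the median of all genes from -0.09 to 0.00 in dFBs, from -0.12 in KCs, from -0.16 in T cells and from -0.12 in endothelial cells. No paired analysis was possible because the groups share only the replicate number 1 and no test was made.

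In dFBs the 10 lower members numbered 5 with 10 CPM added, and the higher ones 3 to 5 under every alternative. Mmp3 was the one that dropped out, in 4 alternatives: its log2 ratio was 0.31 without the 5% of cells with most UMIs, 0.59 as the mean of per-cell CPM, -0.044 with AD subsets weighted as in Ctrl and -0.66 without the 5% of dFBs with most Mmp3. In KCs the 3 higher members numbered 1 with Leiden clusters, 5 with median-ratio scaling, 6 at a mean of at least 1 CPM, 7 with no filter and 6 as the mean of per-cell CPM. The 2 lower ones numbered 1 with median-ratio scaling, 1 with 10 CPM added, 7 at a mean of at least 1 CPM, 7 with no filter and 1 as the mean of per-cell CPM. In macrophages the 8 higher members numbered 4 at a mean of at least 20 CPM. The single lower one became 0 with the stricter gate, 10 CPM added or a mean of at least 20 CPM, 2 with all deposited barcodes or 0.1 CPM added, 4 with the looser gate, 7 with Leiden clusters, 11 with no filter and 3 with dFB RNA taken off. Mmp3 in macrophages was at -0.95 with Leiden clusters, and Mmp13 at -0.84 without the 5% of cells with most UMIs. With dFB RNA taken off, no macrophage Mmp3 level remained in either library, so its value of 0 is no ratio.

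In T cells the 2 higher members numbered 1 with the looser gate or as the mean of per-cell CPM, 1 with Leiden clusters (Mmp11, with neither Mmp3 nor Adamts4 called), 0 with 10 CPM added, a mean of at least 20 CPM or dFB RNA taken off, and 4 with no filter. Lower members, 0 as reported, numbered 1 with the stricter gate, all deposited barcodes or the mean of per-cell CPM, 2 with the looser gate or dFB RNA taken off, 9 with Leiden clusters and 7 with no filter. In endothelial cells lower members, also 0, numbered 1 with Leiden clusters, 3 with no filter and 1 in cells without lymphatic markers, where Adamts5 was at -0.059. With dFB RNA taken off, none of the AD Mmp2 level of endothelial cells remained, and its value of -3.25 comes from the 1 CPM added. In pericytes and smooth muscle cells the 7 higher members numbered 4 with the stricter gate, 4 without the 5% of cells with most UMIs and 3 in cells without smooth muscle markers, and the 4 lower ones 2 with 10 CPM added and 8 with no filter. Mmp2 there was at -0.20 with the stricter gate. With dFB RNA taken off, none of its AD level remained, and its value of -3.03 comes from the 1 CPM added. In Schwann cells higher members, 0 as reported, numbered 1 with the looser gate, 2 with Leiden clusters and 7 with no filter, and the 2 lower ones 1 with the stricter gate, 13 with no filter and 4 as the mean of per-cell CPM.

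The dFB share of member UMIs in Ctrl was 78.9% with the stricter gate, 83.7% with the looser gate, 81.4% with Leiden clusters and 78.9% with all deposited barcodes. In AD it was 64.7%, 81.4%, 82.5% and 73.5% under the same settings and 75.6% in cells with at least 500 genes and 1000 UMIs. At 1000 UMIs a cell, Mmp3 was found in 16.5% of Ctrl and 10.9% of AD dFBs and Mmp2 in 51.6% and 67.5%. Depth limits most the scarce members and the types with few cells, and no statement covers the spread between mice.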
